A study of Mus musculus with 6 samples.

Results

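The thioredoxin and glutaredoxin genes examined here were Txn1, Txn2, Txnrd1, Txnrd2, Txnrd3, Txnip, Glrx and Glrx2, chosen by name, which makes 8 of the 24454 genes in the expression table. All 8 were found in the table and all 8 passed the filter for testing, a mean of at least 1 CPM (a gene's reads for every 1000000 assigned to genes). Expression was measured by RNA sequencing in MTflEcad cells, epithelial cells from a mammary gland tumour of an MMTV-Neu mouse. In such mice a mouse mammary tumour virus promoter drives the Neu (ERBB2) oncogene in mammary tissue. The I80 line had received 80 µM H2O2 every day for 7 months, and the DI150 line 150 µM over the same time. The PBS line, kept without H2O2, was the control. There were 2 libraries of each line. With 1 line per dose, the effect of dose and the history of a line cannot be told apart, and the sources do not say whether libraries of 1 line came from separate long-term cultures. The p-values below therefore measure the spread between these libraries.

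Thioredoxins are small proteins that reduce disulfides in other proteins through a pair of cysteines. Oxidised thioredoxin is reduced by thioredoxin reductases, selenium-containing flavoenzymes that take their electrons from NADPH, whereas glutaredoxins take theirs from glutathione. The system keeps peroxiredoxins, methionine sulfoxide reductases and ribonucleotide reductase active, and its cytosolic reductase is a textbook target of NRF2, a transcription factor that oxidants and electrophiles activate. Txnip, a protein of the alpha-arrestin family, binds reduced thioredoxin and also lowers glucose uptake.

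The coding stretches around the reactive residues are shown because they define the family and set its branches apart. For Txn1, Txn2, Glrx and Glrx2 the stretch surrounds the paired cysteine codons, in capitals. Each runs 5′ to 3′ on the coding strand and was read from the GENCODE annotation of GRCm38.
Txn1: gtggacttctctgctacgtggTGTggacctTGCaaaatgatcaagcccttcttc
Txn2: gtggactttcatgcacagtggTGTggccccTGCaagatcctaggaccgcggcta
Glrx: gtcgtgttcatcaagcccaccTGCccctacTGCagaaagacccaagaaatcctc
Glrx2: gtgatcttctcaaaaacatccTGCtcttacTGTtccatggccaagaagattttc

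The capitals stand at codons 32 and 35 of Txn1, 90 and 93 of Txn2, 23 and 26 of Glrx, and 70 and 73 of Glrx2, counted from the start codon. The reductases carry their reactive selenocysteine near the very end of the protein, at a TGA codon that other mRNAs use as a stop. For Txnrd1, Txnrd2 and Txnrd3 the last coding stretch is given, with that TGA in capitals and the true stop codon as the final 3 bases.
Txnrd1: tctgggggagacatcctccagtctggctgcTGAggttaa
Txnrd2: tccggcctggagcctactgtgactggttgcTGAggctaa
Txnrd3: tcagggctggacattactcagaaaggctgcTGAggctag

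The capitals stand at codon 612 of 613 in Txnrd1, codon 526 of 527 in Txnrd2 and codon 614 of 615 in Txnrd3, the stop codon not counted.

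Against PBS, I80 asks which of these genes differed after the lower dose, and DI150 asks the same for the higher dose. In I80, Txnip, Txnrd1, Txnrd2, Glrx and Txnrd3 rose, from 13.8-fold for Txnip to 1.75-fold for Txnrd3, and Txn1, Txn2 and Glrx2 did not pass the test. In DI150, Txnip, Txnrd1, Txnrd2 and Glrx rose, by 15.8-fold to 2.44-fold, and Txn2 fell to 0.808 times its PBS level. The transcripts of Txnrd1, Txnrd2 and the binding protein Txnip thus rose in both lines, that of Txnrd3 rose in I80 and did not pass in DI150, and that of the main cytosolic thioredoxin did not pass in either.

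By count, 5 of the 8 genes were higher in I80 than in PBS, against 32.3% of the 11428 genes tested, and 0 were lower, against 34.2%. Beside that 0, 1 gene (Txn2) was lower at an unadjusted p under 0.05 by limma, and 0 were lower by edgeR or DESeq2. In DI150, 4 of the 8 genes were higher than in PBS, against 32.7% of all tested genes, and 1 was lower, against 36.1%. The median log2 fold change over the 8 genes was 1.04 in I80 and 0.69 in DI150, beside -0.00 and -0.03 over all tested genes. The 8 genes were chosen with earlier results of these data known, so these counts and medians do not describe an unselected set. A gene was called when limma's Benjamini-Hochberg adjusted p, fitted over all tested genes on log2(CPM + 0.5), was under 0.05. The comparisons of I80 and of DI150 with PBS use the same PBS libraries, so their values are set side by side and one is no independent repeat of the other.

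**Figure D1:**
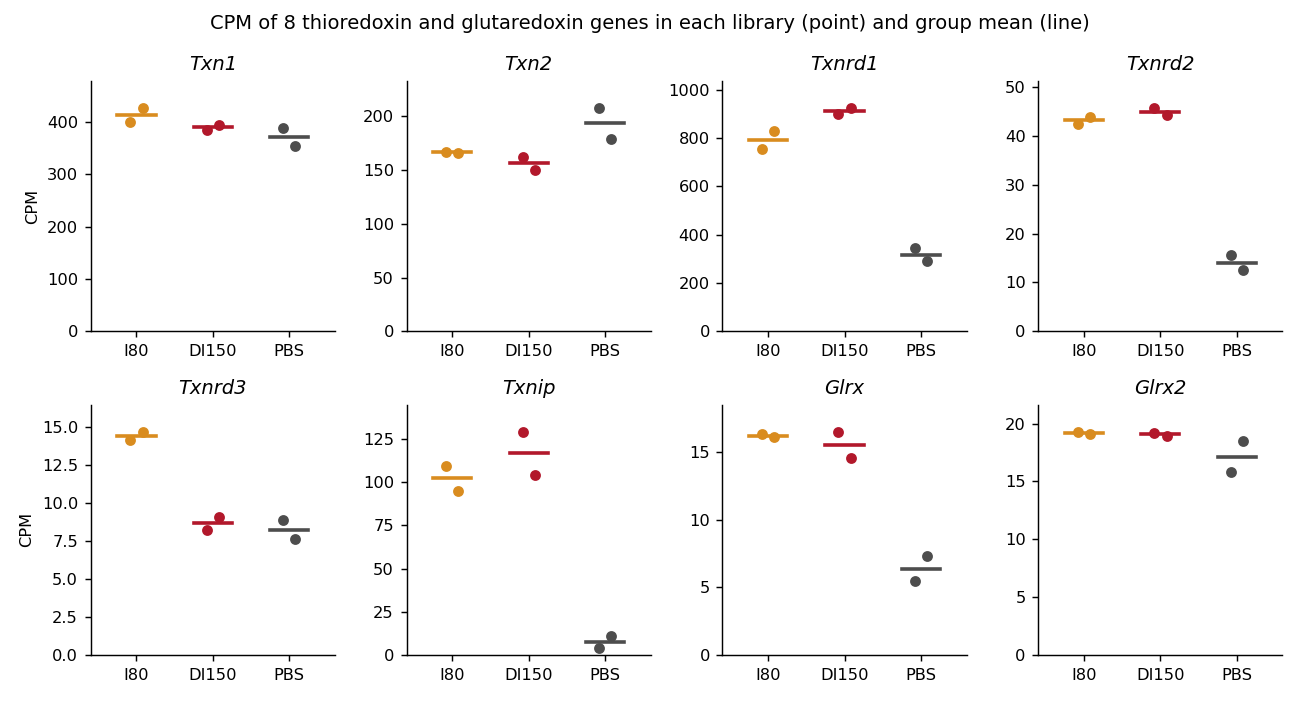
CPM of each of the 8 genes (vertical axis, from 0, one scale per panel) in the I80, DI150 and PBS libraries, with a point per library and a line at the group mean. Txnrd1, Txnrd2, Txnip and Glrx stand higher in all 4 treated libraries than in both PBS libraries, and Txnrd3 stands apart in I80 alone.

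Txn1, the cytosolic and nuclear thioredoxin, had 399 and 427 CPM in I80 and 385 and 395 CPM in DI150, against 389 and 355 CPM in PBS. The I80 libraries were both above the PBS libraries, while the DI150 and PBS libraries overlapped. Its log2 fold change was 0.15 ± 0.07 (SE) in I80 (limma adjusted p = 0.0986) and 0.07 ± 0.07 in DI150 (limma adjusted p = 0.416), with 95% intervals of -0.02 to 0.32 and -0.10 to 0.24. The outcome in I80 depends on the controls, since without PBS replicate 1 it passed (limma adjusted p = 0.0320). Txn1 (gene 22166) spans 57943373 to 57956411 on chromosome 4 in GRCm38, the build of all positions here. A processed pseudogene, Txn-ps1, is annotated, and how the authors' counting treated reads that match both is not given in the sources used here.

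Txn2, the mitochondrial thioredoxin, had 167 and 166 CPM in I80 and 163 and 150.1 CPM in DI150, against 208 and 179 CPM in PBS. All 4 treated libraries were below both PBS libraries. The fall in DI150 was -0.30 ± 0.09 on the log2 scale (limma adjusted p = 0.0145), and the value in I80 was -0.21 ± 0.09 (limma adjusted p = 0.0596). Both outcomes changed with 1 library. Without DI150 replicate 3 the fall in DI150 was no longer called (limma adjusted p = 0.0950), and without PBS replicate 2 the value in I80 was -0.32 and passed (limma adjusted p = 0.0109). Txn2 (gene 56551) lies on chromosome 15 at 77915051 to 77928994.

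The reductase of the cytosol, Txnrd1, had 756 and 828 CPM in I80 and 901 and 925 CPM in DI150, against 344 and 291 CPM in PBS. Every treated library was above both PBS libraries, and the DI150 libraries were above the I80 libraries. Mean CPM was 2.50-fold higher in I80 (log2 fold change 1.32 ± 0.09, limma adjusted p = 1.27e-05) and 2.88-fold higher in DI150 (1.53 ± 0.09, limma adjusted p = 5.46e-06). Txnrd1 (gene 50493) spans 82833951 to 82897724 on chromosome 10 and has 3 annotated start sites with a promoter window in the RefSeq table. The deposited values are per gene, so they do not tell its transcripts apart.

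Txnrd2, the mitochondrial reductase, had 42.5 and 44.0 CPM in I80 and 45.8 and 44.3 CPM in DI150, against 15.6 and 12.6 CPM in PBS. Again all 4 treated libraries were above both PBS libraries, and the DI150 libraries were slightly above the I80 libraries. The differences were 3.07-fold in I80 (log2 fold change 1.59 ± 0.11, limma adjusted p = 1.16e-05) and 3.20-fold in DI150 (1.65 ± 0.11, limma adjusted p = 8.82e-06). The transcript of the mitochondrial reductase was thus higher in both lines, while that of its substrate Txn2 was lower in DI150 and without a call in I80. Txnrd2 (gene 26462) lies on chromosome 16 at 18426417 to 18479073.

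Txnrd3 encodes thioredoxin glutathione reductase, which has an additional glutaredoxin domain and is best known from testis. It had 14.1 and 14.7 CPM in I80 and 8.18 and 9.08 CPM in DI150, against 8.83 and 7.60 CPM in PBS. The I80 libraries stood above all the others, and the DI150 and PBS libraries overlapped. These levels rest on 172 to 362 reads per library. The rise in I80 was 1.75-fold (log2 fold change 0.78 ± 0.13, limma adjusted p = 0.00105), and the value in DI150 was 0.07 ± 0.13 (limma adjusted p = 0.648, 95% interval -0.23 to 0.37). Txnrd3 (gene 232223) lies on chromosome 6 at 89643988 to 89675529.

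**Figure D2:**
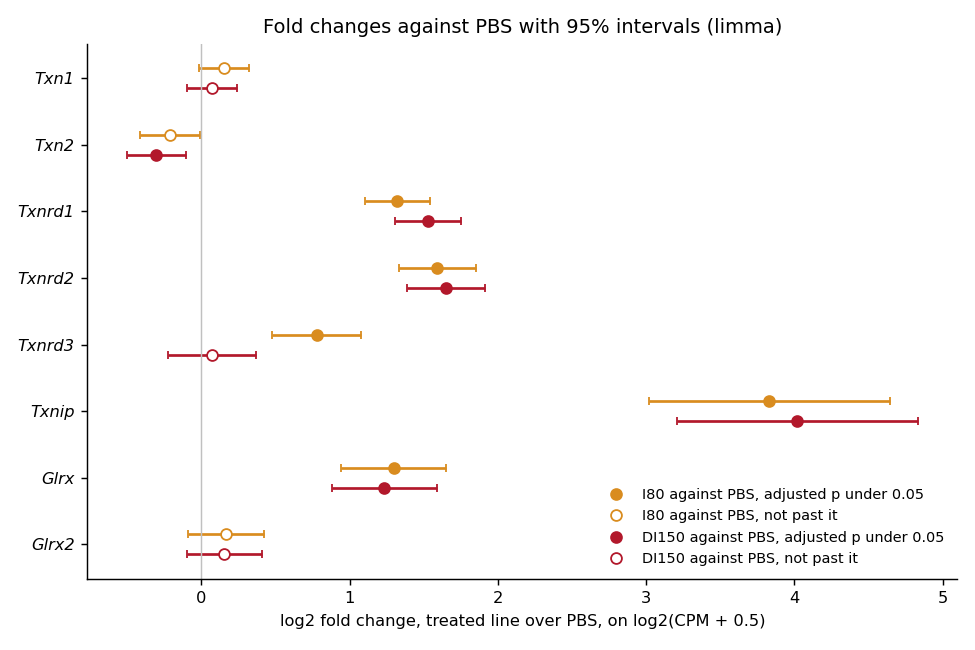
Log2 fold change against PBS, on log2(CPM + 0.5), of each of the 8 genes in I80 and in DI150, with 95% intervals from limma. Filled points passed an adjusted p of 0.05. Txnip is the farthest to the right in both lines, at 3.83 and 4.02, and Txnrd3 is filled in I80 only.

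Txnip had 109.5 and 95.0 CPM in I80 and 129 and 105 CPM in DI150, against 4.13 and 10.7 CPM in PBS. The treated libraries were far above both PBS libraries and overlapped with each other, and on a log scale the PBS libraries lay farther apart than those of either treated line. Mean CPM was 13.8-fold higher in I80 (log2 fold change 3.83 ± 0.35, limma adjusted p = 4.55e-05) and 15.8-fold higher in DI150 (4.02 ± 0.35, limma adjusted p = 3.29e-05). In each comparison the fold change exceeded that of 99.3% of all tested genes. Its size depends on the PBS libraries: the log2 fold change was 3.20 in I80 and 3.39 in DI150 without PBS replicate 1, and 4.47 and 4.66 without PBS replicate 2, and it was called in each case.

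Txnip (gene 56338) lies on chromosome 3 at 96557957 to 96561857 and shares 606 exon bases with the antisense gene Gm15441. Gm15441 had 0.195 and 0.206 CPM in I80 and 0.238 and 0.0763 CPM in DI150, and no read in PBS. Those values were under the level of Txnip in every library. Whether strand was used in counting is not given in the sources used here, so reads of a gene and of a partner on the opposite strand cannot be told apart.

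Glrx, the cytosolic glutaredoxin, had 16.3 and 16.1 CPM in I80 and 16.5 and 14.5 CPM in DI150, against 5.45 and 7.28 CPM in PBS. All 4 treated libraries were above both PBS libraries. The differences were 2.55-fold in I80 (log2 fold change 1.30 ± 0.15, limma adjusted p = 0.000178) and 2.44-fold in DI150 (1.23 ± 0.15, limma adjusted p = 0.000223). Glrx (gene 93692) lies on chromosome 13 at 75839885 to 75850151.

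Glrx2, which has mitochondrial and other forms and can bind an iron-sulfur cluster, had 19.3 and 19.1 CPM in I80 and 19.2 and 19.0 CPM in DI150, against 15.8 and 18.5 CPM in PBS. The treated lines overlapped with each other and lay above both PBS libraries, of which replicate 2 was close to them. Its log2 fold change was 0.17 ± 0.11 in I80 (limma adjusted p = 0.214) and 0.15 ± 0.11 in DI150 (limma adjusted p = 0.240). Without PBS replicate 2 both passed, at 0.28 and 0.27 (limma adjusted p = 0.0426 and 0.0466). Under quantile normalization Glrx2 passed in I80 only (log2 fold change 0.28, limma adjusted p = 0.0366). Glrx2 (gene 69367) lies on chromosome 1 at 143739224 to 143749678.

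DI150 against I80 asks whether the lines differed from each other, and is also the test of whether their effects against PBS differed. Of the 8 genes, 1 was lower in DI150, Txnrd3, against 21.9% of all tested genes, and 0 were higher, against 21.9%. Beside that 0, there was also 0 at an unadjusted p under 0.05 by limma and 0 by edgeR or DESeq2. The median log2 fold change over the 8 genes was -0.04, beside 0 over all tested genes. Txnrd3 was at 0.600 times its I80 level in DI150 (log2 fold change -0.71 ± 0.13, limma adjusted p = 0.00391, 95% interval -1.01 to -0.41).

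The remaining 7 genes did not pass, with intervals of different widths. Txnrd1 was 1.15-fold higher in DI150 than in I80 (log2 fold change 0.21 ± 0.09, limma adjusted p = 0.114, 95% interval -0.01 to 0.43), and it passed when either PBS library was left out of the shared fit (limma adjusted p = 0.0469 without PBS replicate 1 and 0.0470 without PBS replicate 2). Txnip had a log2 fold change of 0.19 ± 0.35 (limma adjusted p = 0.695), with the lower end of its 95% interval at -0.62, which allows a difference of either sign. Narrower intervals, -0.20 to 0.32 for Txnrd2 and -0.42 to 0.29 for Glrx, also held 0.

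Levels of different genes were compared as CPM per kilobase of annotated exon. The exons of a gene's protein-coding transcripts were merged, so this length can exceed that of any single mRNA, and the order of genes rests on it. On this scale Txn1 was the highest of the 8 genes in every line, at 393 ± 18.5 in I80 and 371 ± 6.70 in DI150, against 354 ± 23.1 in PBS (SD, n = 2 each). Txnrd1 came next, at 194 ± 12.6 in I80 and 224 ± 4.19 in DI150, against 77.9 ± 9.13 in PBS. The cytosolic reductase thus stood closer to its substrate in the treated lines than in PBS on the per-length scale.

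In PBS, Txn2 followed at 49.7 ± 5.28 CPM per kilobase, and the other 5 genes lay between 1.46 and 5.33 CPM per kilobase in single libraries. Among those, neighbours in the order Glrx, Txnrd2 and Glrx2 overlapped between libraries, Glrx2 and Txnrd3 did not, and Txnip, at 1.46 and 3.78, overlapped with both Glrx2 and Txnrd3. In the treated lines Txnip came next to Txn2 in the order of levels, at 36.2 ± 3.64 CPM per kilobase in I80 and 41.4 ± 6.23 in DI150, against 2.62 ± 1.64 in PBS. The libraries of Txnip and Txn2 overlapped in DI150 and not in I80, where Txn2 was higher. At the low end Txnrd3 was above Glrx2 in I80, at 5.08 ± 0.137 and 4.26 ± 0.0295 CPM per kilobase, and below it in DI150, at 3.04 ± 0.224 and 4.23 ± 0.0327. In CPM without division by length, Txnrd3 was below Glrx2 in I80 too, at means of 14.4 and 19.2.

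**Figure D3:**
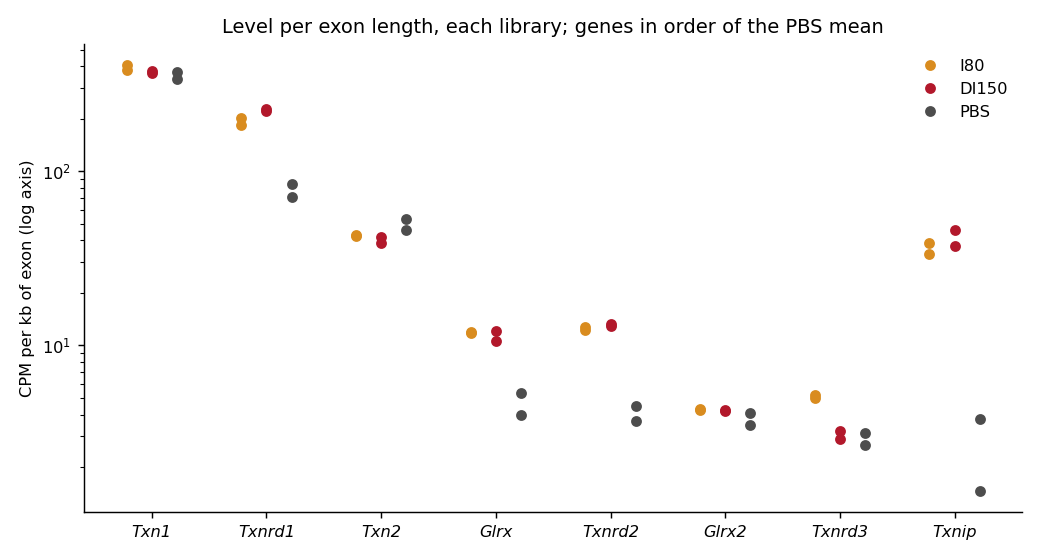
CPM per kilobase of exon (vertical log axis) of each of the 8 genes, ordered by their PBS mean, with a point per library of I80, DI150 and PBS. Txn1 is highest in all lines, and Txnip is near the bottom in PBS, a little below Txn2 in I80 and overlapping with it in DI150.

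Promoter letters were read because NRF2 binds antioxidant response elements and the glucose-sensing factors MondoA and ChREBP bind carbohydrate response elements, for which Txnip is a textbook target. The windows run from 250 bases before to 50 bases after an annotated start, and come from RefSeq on GRCm38.p6. All 8 genes had at least 1, and together they had 14. The core of the antioxidant element was searched as TGACNNNGC and the CCAAT box as CCAAT. A form of the carbohydrate element was searched as a pair of CACGNG letters 5 bases apart (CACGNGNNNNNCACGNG). All were searched on both strands.

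The TGACNNNGC core was in 12.4% of 32851 windows and in 14.0% of 27025 genes. Of the 8 genes it was in Txnrd1 alone, in 1 of its 3 windows, on the opposite strand at 92 to 84 bases before the start. The paired CACGNG letters were in 16 windows, 0.0487% of all, from 15 genes. Txnip was among those 15, with a match on its own strand at 85 to 69 bases before the start. Since Txnip is a textbook target of that element, its match was foreseeable when the letters were set. The rarity of the letters is therefore no result about Txnip. CCAAT was in 37.4% of windows and 41.1% of genes, and in 4 of the 8 genes (Txn2, Txnrd1, Txnip and Glrx2), without overlap with the other matches in Txnip and Txnrd1. Both windows are printed 5′ to 3′ on the strand of the gene, Txnip at chr3:96557707-96558006 and Txnrd1 at chr10:82858956-82859255, each on the plus strand, with the paired letters of Txnip and the core of Txnrd1 (as its reverse complement) in capitals.
Txnip: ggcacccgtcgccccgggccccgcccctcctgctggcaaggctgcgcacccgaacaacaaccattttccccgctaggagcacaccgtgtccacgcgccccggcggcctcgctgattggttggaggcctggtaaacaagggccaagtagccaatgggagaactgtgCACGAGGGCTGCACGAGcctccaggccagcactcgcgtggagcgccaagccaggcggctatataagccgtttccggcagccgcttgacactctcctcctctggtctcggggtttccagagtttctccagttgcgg
Txnrd1: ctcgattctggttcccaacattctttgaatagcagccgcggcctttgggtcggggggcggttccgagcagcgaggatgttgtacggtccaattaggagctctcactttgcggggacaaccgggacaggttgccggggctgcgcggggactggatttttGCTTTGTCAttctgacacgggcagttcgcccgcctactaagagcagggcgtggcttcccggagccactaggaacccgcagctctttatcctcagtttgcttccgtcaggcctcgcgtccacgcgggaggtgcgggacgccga

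A match is a run of letters and no evidence of binding, and a window without one may have a site elsewhere.

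Transcripts of the proteins that thioredoxins and glutaredoxins serve moved in both directions. Of 16 tested client genes (peroxiredoxins, sulfiredoxin, methionine sulfoxide reductases, ribonucleotide reductase subunits, the kinase Map3k5 and the endonuclease Apex1), 9 rose and 4 fell in I80 relative to PBS, with 3 without a call, and 8 rose and 6 fell in DI150, with 2 without. Of all tested genes, 32.3% were higher and 34.2% lower in I80, and 32.7% and 36.1% in DI150. Those shares also stand beside the counts of the lists below. The median log2 fold change of the clients was 0.33 in I80 and 0.24 in DI150. The largest rise in both lines was that of Srxn1, sulfiredoxin, which restores overoxidised peroxiredoxins, with 658 and 735 CPM in I80 and 429 and 418 CPM in DI150, against 62.8 and 60.7 CPM in PBS (log2 fold change 3.48 and 2.77, limma adjusted p = 5.41e-08 and 8.09e-08).

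The methionine sulfoxide reductases moved in both directions. Msrb1, Msrb2 and Msrb3, which reduce the R form, rose in both lines, with Msrb2 at 27.0 and 28.4 CPM in I80 and 21.6 and 24.0 CPM in DI150, against 3.04 and 4.69 CPM in PBS (log2 fold change 2.72 and 2.44, limma adjusted p = 8.38e-06 and 1.35e-05). Msra, which reduces the S form, fell to 3.82 and 4.20 CPM in I80 and 5.19 and 4.69 CPM in DI150, against 10.3 and 9.75 CPM in PBS (log2 fold change -1.22 and -0.95, limma adjusted p = 0.000125 and 0.000456). These genes were picked after their values were seen.

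The largest fall among clients in I80 was that of Prdx2, a cytosolic peroxiredoxin, which had 162 and 163 CPM in I80 and 197 and 181 CPM in DI150, against 377 and 389.6 CPM in PBS (log2 fold change -1.23 and -1.02, limma adjusted p = 2.94e-06 and 7.23e-06). In DI150 it was that of Map3k5, the kinase ASK1 that reduced thioredoxin holds inactive, with 51.6 and 48.5 CPM in I80 and 33.7 and 35.1 CPM in DI150, against 92.3 and 99.6 CPM in PBS (log2 fold change -0.93 and -1.47, limma adjusted p = 3.06e-05 and 2.60e-06). The other peroxiredoxins did not fall in I80. Prdx1 had 2059 and 2221 CPM in I80 and 1482 and 1346 CPM in DI150, against 563 and 558 CPM in PBS. Its log2 fold change in I80 was 1.93 (limma adjusted p = 8.84e-07). Prdx3 and Prdx6 were also called higher in I80, and Prdx4 and Prdx5 had no call there. In DI150 Prdx4 was lower, at 43.6 and 44.8 CPM against 87.0 and 77.1 CPM in PBS. Prdx1, Prdx3, Prdx4, Prdx5 and Prdx6 were picked after their values were seen.

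Electrons reach the reductases through NADPH. Of 9 tested genes of that supply (Gsr and enzymes that make NADPH or feed the pentose phosphate pathway), 5 were higher and 3 lower in each treated line, and the median log2 fold change was 0.22 in I80 and 0.49 in DI150. Taldo1, transaldolase, rose most, with 799 and 826 CPM in I80 and 614 and 557 CPM in DI150, against 194 and 214 CPM in PBS (log2 fold change 1.99 and 1.52, limma adjusted p = 6.47e-07 and 2.26e-06). Idh2, the mitochondrial NADP-dependent isocitrate dehydrogenase, fell most, to 17.4 and 18.5 CPM in I80 and 14.7 and 18.5 CPM in DI150, against 245 and 229.6 CPM in PBS (log2 fold change -3.69 and -3.81, limma adjusted p = 2.19e-07 and 1.65e-07).

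The gene without a call in both lines, named for that reason, was Gsr, glutathione reductase, the counterpart of the thioredoxin reductases on the glutathione side. It had 263 and 289 CPM in I80 and 249.6 and 269 CPM in DI150, against 277 and 246 CPM in PBS, and all groups overlapped (log2 fold change 0.08 and -0.01, limma adjusted p = 0.438 and 0.920).

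**Figure D4:**
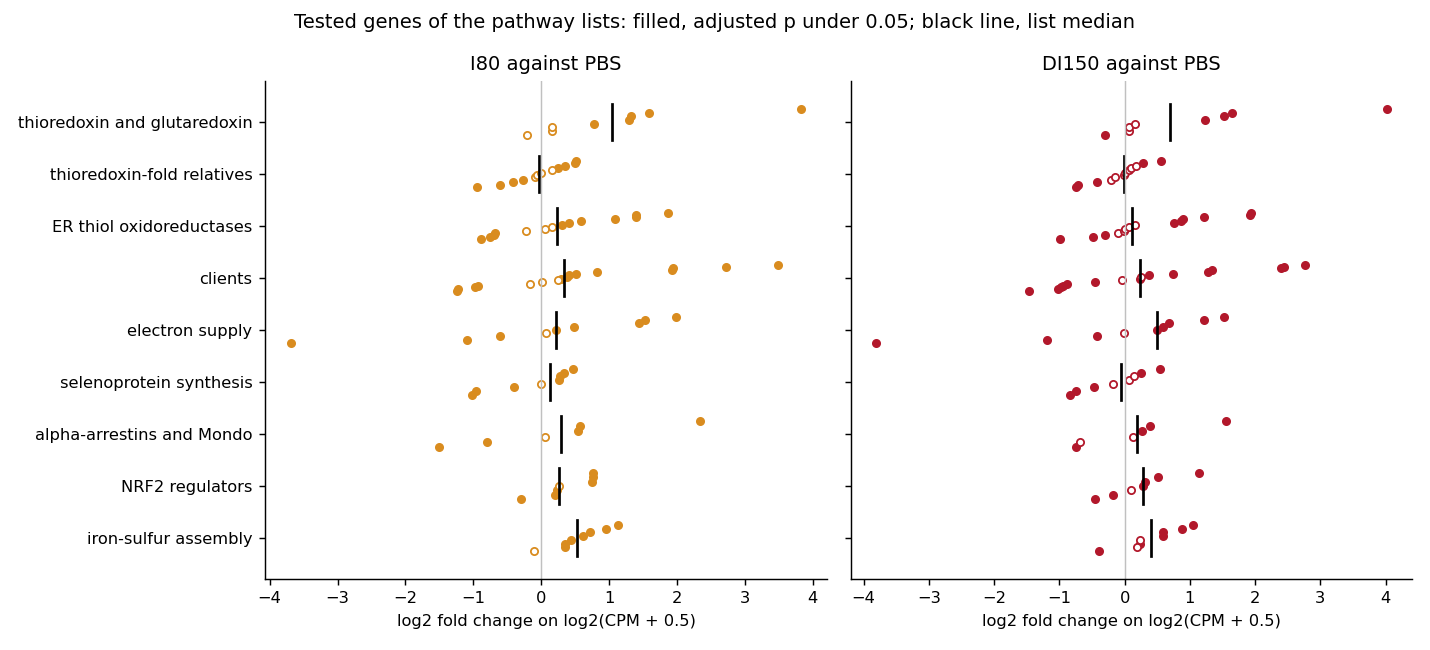
Log2 fold change against PBS, on log2(CPM + 0.5), of every tested gene of the thioredoxin and glutaredoxin genes and 8 lists around them, in I80 (left panel) and DI150 (right panel). Filled points passed an adjusted p of 0.05 and the black line is the list's median, which is 1.04 and 0.69 for the 8 genes and 0.33 and 0.24 for their clients.

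Of 12 tested relatives with a thioredoxin fold, 4 were higher and 4 lower in I80, and 2 were higher and 3 lower in DI150, with medians of -0.03 and -0.01 on the log2 scale. Txndc2 and Txndc8, known from sperm, were not tested because of low values. In I80 the largest rise was that of Glrx3, a cytosolic glutaredoxin of iron-sulfur handling, with 57.5 and 57.3 CPM in I80 and 43.1 and 42.9 CPM in DI150, against 43.1 and 37.4 CPM in PBS (log2 fold change in I80 0.51 ± 0.09, limma adjusted p = 0.00136). Like Txnrd3, it was lower in DI150 than in I80 (log2 fold change -0.41 ± 0.09, limma adjusted p = 0.00795). The largest fall in I80 was that of Txndc16 (log2 fold change -0.95 ± 0.15, limma adjusted p = 0.000951). In DI150, Txnl4a, a spliceosome protein, rose most (log2 fold change 0.56 ± 0.06, limma adjusted p = 0.000116), and Txndc17, a thioredoxin-related protein of the cytosol, fell most (log2 fold change -0.75 ± 0.06, limma adjusted p = 2.43e-05).

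Among 14 tested thiol oxidoreductases of the endoplasmic reticulum, 7 were higher and 4 lower in I80, and 6 were higher and 3 lower in DI150, with medians of 0.23 and 0.11 on the log2 scale. Pdia5, a protein disulfide isomerase, rose most in I80, with 10.5 and 10.3 CPM in I80 and 10.5 and 11.2 CPM in DI150, against 3.12 and 1.98 CPM in PBS (log2 fold change 1.86 and 1.92, limma adjusted p = 7.80e-05 and 6.28e-05). Ero1a, the oxidase that passes electrons from disulfide isomerases to oxygen, rose most in DI150, with 156 and 143 CPM in I80 and 244 and 197 CPM in DI150, against 52.0 and 61.5 CPM in PBS (log2 fold change 1.39 and 1.94, limma adjusted p = 3.52e-05 and 5.64e-06). P4hb, the main disulfide isomerase, fell most in both, with a log2 fold change of -0.88 ± 0.07 in I80 and -0.99 ± 0.07 in DI150 (limma adjusted p = 2.26e-05 and 1.11e-05).

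The thioredoxin reductases need selenocysteine, and the 8 tested genes of selenoprotein synthesis were called in both directions, as all tested genes were. In I80, 4 were higher and 3 lower, and in DI150, 2 were higher and 3 lower, with medians of 0.13 and -0.05 on the log2 scale. Pstk, the kinase that prepares the tRNA for selenocysteine, had 13.4 and 16.4 CPM in I80 against 11.7 and 9.71 CPM in PBS (log2 fold change 0.46 ± 0.14, limma adjusted p = 0.0224). Trnau1ap, which associates with that tRNA, fell most in I80 (log2 fold change -1.03 ± 0.11, limma adjusted p = 9.10e-05). Sepsecs, the enzyme that forms selenocysteine on its tRNA, rose most in DI150 (log2 fold change 0.54 ± 0.11, limma adjusted p = 0.00259), and Scly, selenocysteine lyase, fell most there (log2 fold change -0.83 ± 0.15, limma adjusted p = 0.00148).

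Among the other alpha-arrestins and the Mondo factors, 6 of 8 genes were tested, and 3 were higher and 2 lower in I80, with 3 higher and 1 lower in DI150 and medians of 0.30 and 0.20 on the log2 scale. Arrdc4, the relative of Txnip that is likewise a known MondoA target, had 26.7 and 24.3 CPM in I80 and 14.0 and 15.3 CPM in DI150, against 3.08 and 6.83 CPM in PBS (log2 fold change 2.34 ± 0.29 and 1.56 ± 0.29, limma adjusted p = 0.000238 and 0.00194). Arrdc2 fell, to 2.42 and 2.06 CPM in I80 and 4.81 and 3.47 CPM in DI150, against 5.94 and 8.77 CPM in PBS (log2 fold change -1.50 ± 0.22 and -0.75 ± 0.22, limma adjusted p = 0.000650 and 0.0184). The family thus did not move as 1 group.

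Within PBS, Txnip, Arrdc4, Arrdc3 and Arrdc2 were all higher in replicate 2 than in replicate 1, with Arrdc3 at 81.6 and 54.0 CPM. So were Arrdc1, at 67.9 and 56.2 CPM, and by less Mlxip, at 73.7 and 69.9 CPM, and Mlx, at 72.3 and 71.6 CPM. Mlxip, which encodes MondoA, was higher in both treated lines (log2 fold change 0.54 ± 0.07 and 0.39 ± 0.07, limma adjusted p = 0.000297 and 0.00157). Mlxipl, which encodes ChREBP, had at most 0.0404 CPM in any library. Arrdc1, Arrdc3, Mlx, Mlxip and Mlxipl were picked after their values were seen.

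**Figure D5:**
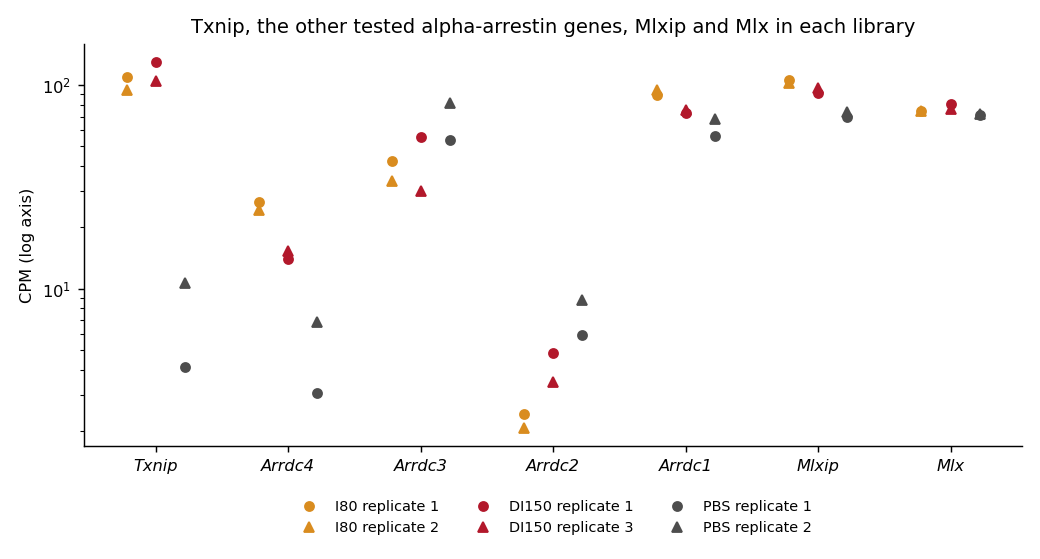
CPM (vertical log axis) of Txnip, the other tested alpha-arrestin genes, Mlxip and Mlx in each library of I80, DI150 and PBS, with the replicate shown by the shape of the point. Txnip and Arrdc4 are higher in the treated libraries than in PBS, and Arrdc2 is lower. PBS replicate 2 lies above PBS replicate 1 for every gene shown, least for Mlx and Mlxip.

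Of 7 tested genes that make up or regulate the NRF2 switch, 5 were higher and 1 lower in I80, and 4 were higher and 2 lower in DI150, with medians of 0.27 and 0.28 on the log2 scale. Keap1, which holds NRF2 for degradation, rose most in I80, with 129 and 127 CPM in I80 and 90.2 and 96.5 CPM in DI150, against 75.3 and 74.6 CPM in PBS (log2 fold change 0.77 and 0.31, limma adjusted p = 3.45e-05 and 0.00377). Nfe2l2, which encodes NRF2, had 444 and 457 CPM in I80 and 321 and 330 CPM in DI150, against 262 and 275 CPM in PBS. Its log2 fold change in I80 was 0.75 ± 0.06 (limma adjusted p = 2.94e-05). Nfe2l2 was picked after its values were seen. Maff, a small Maf partner, rose most in DI150 (log2 fold change 1.14 ± 0.14, limma adjusted p = 0.000244). Cul3, the ubiquitin ligase scaffold used by Keap1, fell most in both, with a log2 fold change of -0.29 ± 0.10 in I80 and -0.46 ± 0.10 in DI150 (limma adjusted p = 0.0302 and 0.00390).

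Glutaredoxins also take part in iron-sulfur cluster assembly. Of 8 tested genes of that process, 7 rose in I80 relative to PBS and the other did not pass, and 5 rose and 1 fell in DI150, with medians of 0.52 and 0.41 on the log2 scale. Of all tested genes, 32.3% were higher and 34.2% lower in I80, and 32.7% and 36.1% in DI150. The listed gene without a call in I80 was Nfu1, a scaffold protein of mitochondria (log2 fold change -0.10 ± 0.11, limma adjusted p = 0.420), which was lower in DI150 (-0.39 ± 0.11, limma adjusted p = 0.0114). Isca2, an assembly factor, rose most in I80 (log2 fold change 1.13 ± 0.12, limma adjusted p = 0.000128), and Bola1, a partner of mitochondrial glutaredoxin, rose most in DI150 (log2 fold change 1.05 ± 0.09, limma adjusted p = 3.64e-05).

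The genes whose pattern was most like that of a member were sought among 9819 genes averaging 5 CPM or more, by the root mean square difference of centred log2(CPM + 0.5) over the 6 libraries. For Txnip they were Arnt2 (0.207), Itgb3 (0.237) and Sox6 (0.243), beside a range of 4.81 for Txnip itself on that scale. Arnt2 had 76.0 and 68.3 CPM in I80 and 91.0 and 65.9 CPM in DI150, against 3.23 and 5.18 CPM in PBS. For Txnrd2 the nearest were Ica1 (0.0729), Fbxo7 (0.0816) and Gclc (0.0828), with a range of 1.82. Gclc, the catalytic subunit of the rate-limiting enzyme of glutathione synthesis, had 216 and 238 CPM in I80 and 237 and 224 CPM in DI150, against 85.2 and 77.2 CPM in PBS. For Txnrd1 they were P2ry2 (0.0702), Nol4l (0.0750) and Parp6 (0.0773), with a range of 1.67. The likeness rests mainly on the step between PBS and both treated lines, which many genes share.

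The libraries held 21017849 to 26608715 assigned reads, and a single read was worth 0.0376 to 0.0476 CPM. Log2 values of replicates correlated across genes at r = 0.998 in I80, 0.997 in DI150 and 0.991 in PBS, and genes are not independent replicates. In bulk RNA, fewer cells of a type and less RNA per cell cannot be told apart. The sum of 9 epithelial markers was 5101 and 5333 CPM in I80 and 5742 and 6174 CPM in DI150, against 7023 and 7259 CPM in PBS, and Krt19 was at 0 in both treated lines. That sum holds opposite moves, since 6 of the 9 were lower in each treated line than in PBS. Krt18 had 960 and 976 CPM in I80 and 988 and 852 CPM in DI150, against 2795 and 2742 CPM in PBS, and Cldn4 had at most 0.936 CPM in the treated lines, against 124 and 178 CPM in PBS. Erbb2 had 2200 and 1989 CPM in I80 and 2697 and 2587 CPM in DI150, against 500.1 and 693 CPM in PBS, and was called higher in both, as Epcam was in DI150. The 8 fibroblast markers summed to 21.8 to 24.0 CPM in all libraries, with Pdgfrb and Thy1 at 0 in each. Within that sum Col1a2 was at 0 in both treated lines, against 15.3 and 15.3 CPM in PBS, while Pdgfra had 14.5 and 15.1 CPM in I80 and 19.0 and 18.4 CPM in DI150, against 5.04 and 5.50 CPM in PBS. Col1a1 had 8.90 and 8.90 CPM in I80 and 3.85 and 3.63 CPM in DI150, against 1.47 and 2.75 CPM in PBS. The 6 macrophage markers summed to 22.1 and 26.5 CPM in I80 and 62.7 and 74.0 CPM in DI150, against 86.6 and 102 CPM in PBS, mostly from Cd14, with Adgre1 at 0 in each library and Csf1r at 0 in both treated lines and at 7.67 and 14.5 CPM in PBS. The 5 endothelial markers summed to at most 0.742 CPM, and the 5 adipocyte markers to at most 0.162 CPM outside DI150, where Lpl brought them to 11.8 and 13.6 CPM. The part of these differences in the results above was not tested.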

How the data were processed

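Total RNA of 6 libraries was depleted of ribosomal RNA and sequenced as single reads with a stranded kit, per the labels' protocols. The submitters' processing notes name STAR and the mm10 build. Not given in the sources used here are the counting tool, its annotation and whether strand was used. One table of CPM was deposited by the authors, with each library's values summing to 1000000. The deposited CPM gave whole reads, within 1e-06, for 100.0% of 146724 values. Gene numbers were matched to RefSeq (GRCm38.p6), which gave symbols for 24374 of 24454 (99.67%). Samples were grouped by the treatment in the labels. The column DI150 replicate 3 has no such number in the labels and was used as a DI150 library.

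The test was limma 3.58.1 (trend, R 4.3.3) on log2(CPM + 0.5) of 11428 genes whose mean reached 1 CPM, with 3 groups in 1 fit, two-sided, Benjamini-Hochberg adjusted over all tested genes. The added 0.5 shrinks log2 fold changes of low genes, so folds are ratios of mean CPM. For Txnip, whose PBS libraries lay apart, the fitted folds, 14.2 in I80 and 16.2 in DI150, were still above those ratios. The test was also run on simulated counts with the same dispersion for every gene and few changed genes. That run does not measure its error rate in these data. Alternatives were edgeR 4.0.16 and DESeq2 1.42.0 on recovered reads (edgeR called 7610 genes in I80 against PBS, 7852 in DI150 against PBS and 4997 in DI150 against I80, and limma 7591, 7853 and 5008), pseudocounts of 0.1 and 2, other filters and scalings, the groups compared alone, a replicate block and each library left out. Members and lists were chosen with earlier results of these data known. Genes named from the lists are those with the largest called rise and fall against PBS in each treated line. Outside that rule, Gsr, Msrb1, Msrb3, Msrb2, Msra, Arrdc1, Arrdc3, Mlx, Mlxip, Mlxipl and single markers of cell types were picked after their values were seen. So were Prdx1, Prdx3, Prdx4, Prdx5, Prdx6 and Nfe2l2. Exon lengths and coding stretches came from GENCODE M21. Some results are not reported here.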

Additional observations from a re-analysis of the deposited data

Results flagged for a closer look

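Txnrd3 was the gene among the 8 whose response differed between the treated lines. In DI150 it was lower than in I80 (log2 fold change -0.71 ± 0.13, limma adjusted p = 0.00391), with 8.18 and 9.08 CPM in DI150 against 14.1 and 14.7 CPM in I80, so both DI150 libraries were below both I80 libraries. It stayed called in all 16 alternatives, with values from -0.82 to -0.63 and adjusted p from 0.000984 to 0.0434. Since each dose is 1 line, dose and line cannot be told apart for this difference.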

How the results depend on the processing

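Each result was recomputed under 16 alternatives, and no called value changed sign. The calls of Txnrd1, Txnrd2, Txnip and Glrx against PBS in both lines, and of Txnrd3 in I80 against PBS, held in all 16. Under quantile normalization the number of genes higher in I80 than in PBS became 6, as Glrx2 passed (limma adjusted p = 0.0366). The number of genes lower in I80 than in PBS became 1 under it (Txn2, limma adjusted p = 0.0457). Over the fits without 1 library, that number ran from 0 to 1, the number lower in DI150 than in PBS from 0 to 1 (Txn2), and the number higher in DI150 than in I80 from 0 to 1 (Txnrd1, without PBS replicate 1 or 2). The number higher than in PBS ran from 5 to 6 in I80 and from 4 to 5 in DI150, and the number lower in DI150 than in I80 stayed at 1. A fit without 1 library leaves a lone sample in its line, which is then assumed to vary like the others.

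Equal replicate numbers are not said to share a culture or day, and deviations of same-numbered libraries from their group means correlated at 0.0228 for I80 and PBS, -0.0551 for DI150 and PBS and 0.213 for DI150 and I80. A replicate block, fitted without DI150 replicate 3, gave 0 genes lower in DI150 than in PBS (Txn2, limma adjusted p = 0.0706) and changed no other of these calls. With it, 2692 genes differed between DI150 and I80, against 5008 without, and without 1 library each that count ran from 2487 to 5972. With 2 libraries a line, small differences such as those of Txn1, Txn2 and Glrx2 are at the limit of what these data resolve.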
